A study of Mus musculus with 16 samples.

Results

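The genes described are those for cytosolic ribosomal proteins, in p53-/-; Myc hepatoblasts treated with sorafenib. Members were the rows named Rpl or Rps and a number (with a, l, x, y or l and a number after it), Rplp0, Rplp1, Rplp2 and Rpsa, with at least 100 counts in every library. This gave 79 members of 85 rows with such a name and of 40840 genes in all: 32 of the small subunit and 47 of the large subunit. No measured difference between groups was used to choose them. Of the 6 rows under the minimum, Rpl10l and Rpl39l had no count in any library, Rpl3l had 0 to 4, Rpl32l 6 to 27, Rpl6l 11 to 37 and Rpl28 66 to 141. The lowest members were Rps4l, with 277 to 792 counts, and Rpl22l1, with 594 to 2147.

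The ribosome is built from ribosomal RNA and the proteins of this family. The small subunit reads the mRNA and the large subunit forms the peptide bond. Many of these mRNAs begin with a C followed by a run of pyrimidines, the 5′ terminal oligopyrimidine (TOP) tract, through which mTOR signalling and Larp1 control their translation. Ribosomal proteins made in excess of ribosomal RNA are degraded, and free Rpl5 and Rpl11 bind Mdm2, the ligase that keeps p53 low.

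RNA was sequenced from a mouse hepatoblast line that lacks p53 and overexpresses Myc, a model of hepatocellular carcinoma that all 4 groups share. Treatment was with sorafenib, a multikinase inhibitor (8.5 µM), or with DMSO alone as the vehicle. It lasted 48 hours or 7 days, and each of the 4 groups has 4 libraries. All results come from this 1 line. The labels do not say whether replicates were separate cultures, so p-values measure the spread between these libraries, which may be technical.

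Total counts per library ranged from 16586254 to 30828427. The hepatocyte genes Alb (0 to 1 count) and Hnf4a (0) were absent or near 0, Epcam had 1 to 37 counts, and Dlk1, a hepatoblast gene, had 3488 to 38122. Of 10 hepatoblast markers, 8 could be tested: 2 were higher and 5 lower with sorafenib at 48 hours, and 2 higher and 6 lower at 7 days. Their summed normalized counts were 35003 to 36371 in DMSO and 12889 to 14807 in sorafenib at 48 hours, and 18791 to 20604 and 6898.6 to 7163 at 7 days. Most of this sum was Dlk1 (means of 32234 and 10444 at 48 hours), while Foxa2 and Sox9 of the same list rose by 1.77 and 1.64 on the log2 scale at 48 hours. Of 4 fibroblast markers, 3 could be tested, with 2 higher and 1 lower at 48 hours and 1 higher and 2 lower at 7 days, and Lrat was at 0. Their sums were 114080.0 to 115820.0 and 124430.0 to 138220.0 at 48 hours, and 88949 to 93531 and 62964 to 64445 at 7 days. The collagen genes Col1a1 and Col3a1 made up most of them: at 7 days Col3a1 fell from a mean of 44487 to 10180.2 and Col1a1 rose from 42221 to 52228. Of 4 immune genes, Ptprc (0 to 4 counts), Adgre1 (0) and Cd3e (0) were at or near 0, and Cd68 had 47 to 91 counts and did not pass the test at either time. Of 3 endothelial genes, Cdh5 (0 to 2 counts) and Pecam1 (0 to 9) were near 0, and Kdr (26 to 270 counts) rose with sorafenib by 1.32 at 48 hours and 2.65 at 7 days on the log2 scale (edgeR adjusted p = 7.39e-08 and 1.08e-12). The part of these marker differences in the ribosomal protein results was not tested. Trp53 had 1268 to 4799 counts in this p53-/- line. The sources used here do not say which part of the gene is deleted, so its count does not check the genotype.

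Some libraries stood apart. By chi-square per gene between replicates, which counting error alone would put near 1, DMSO 7 days replicate 4 was at 41.4 to 55 against the other replicates of its group, which were at 1.78 to 2.79 among themselves. Its share of counts on mitochondrial rRNA and tRNA was 0.205%, against 0.09 to 0.098%. In DMSO at 48 hours, replicates 1 and 4 were at 14.4 to 32.7 against replicates 2 and 3, with 4.19 and 4.83 within these pairs, and sorafenib 48 hours replicate 2 was at 27 to 30.7. Pairs within sorafenib at 7 days were at 1.49 to 4. The part of these differences in the ribosomal protein results was not tested, beyond the fits that leave out a library. In sorafenib 48 hours replicate 2, genes after a place near Mycbp2 on chromosome 14 had 0.605 times the level, relative to genes before it, that the other replicates of the group had. The 60 members before that place were at a median of 1.07 times the mean of replicates 1, 3 and 4. The 19 members after it, all on chromosomes 15 to 18 and X, were at a median of 0.655 times (log2 ratios from -0.72 to -0.50). These 19 are Rpl37, Rpl30, Rpl8, Rpl3, Rpl35a, Rpl24, Rps2, Rps10, Rpl10a, Rps28, Rps18, Rpl7l1, Rpl36, Rps14, Rpl17, Rpl39, Rpl10, Rps4x and Rpl36a. The main counts of members called with sorafenib are given with and without this library, but those against the family total are not.

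**Figure D1:**
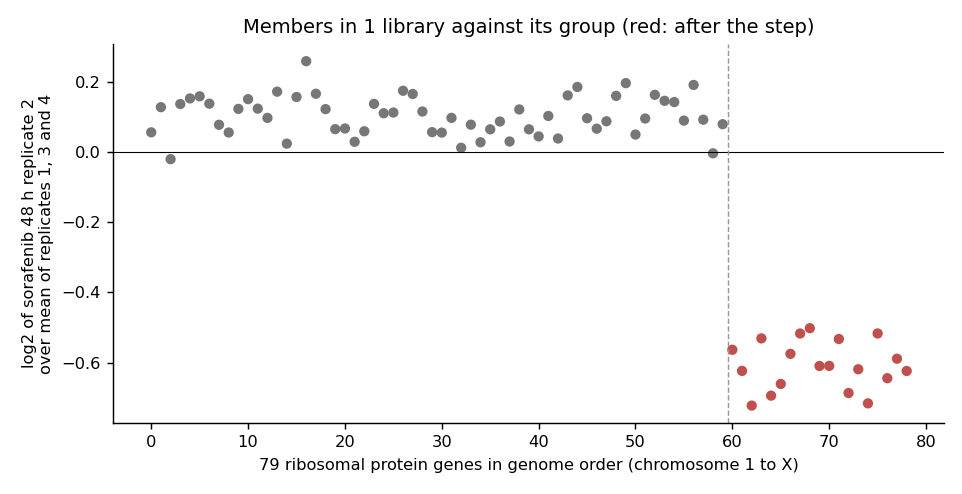
The 79 members stand in genome order on the x axis, and the y axis is the log2 ratio of the normalized count in sorafenib 48 hours replicate 2 to the mean of the other 3 replicates. The 60 grey points lie between -0.02 and 0.26, and the 19 red points, after the step, lie between -0.72 and -0.50.

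The stretches of DNA around the starts of 8 members are shown because some hold the letters searched for as a TOP tract core and others do not. In addition, 4 of the members form the paralog pairs described further on. Each stretch runs from 40 bases before the listed start to 20 bases after it, 5′ to 3′, from RefSeq on GRCm38.p6. Capitals mark a TOP tract core (the letters CTTTCC, the longer run CTTTTCC, or the related run CTCTTTC, read on the gene's strand) or an ETS core (CTTCCG, or CGGAAG on the other strand). They lie at chr9:64173347-64173406 (Rpl4, plus strand), chr3:90213629-90213688 (Rps27, minus), chr9:66946046-66946105 (Rps27l, plus, first of its listed starts), chr4:152325686-152325745 (Rpl22, plus, first of its listed starts), chr3:28805468-28805527 (Rpl22l1, plus), chr1:72711220-72711279 (Rpl37a, plus), chr5:115559427-115559486 (Rplp0, plus) and chr10:23787190-23787249 (Rps12, minus).
Rpl4: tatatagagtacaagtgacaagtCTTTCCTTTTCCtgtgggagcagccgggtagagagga
Rps12: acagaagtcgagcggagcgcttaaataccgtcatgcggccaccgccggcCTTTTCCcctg
Rps27: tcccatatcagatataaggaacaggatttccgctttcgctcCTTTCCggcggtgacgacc
Rps27l: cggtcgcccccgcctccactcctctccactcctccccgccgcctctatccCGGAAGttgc
Rpl22: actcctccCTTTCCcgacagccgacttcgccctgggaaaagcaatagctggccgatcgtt
Rpl22l1: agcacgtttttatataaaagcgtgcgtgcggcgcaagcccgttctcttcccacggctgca
Rpl37a: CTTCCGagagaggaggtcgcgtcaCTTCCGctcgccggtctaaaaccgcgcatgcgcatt
Rplp0: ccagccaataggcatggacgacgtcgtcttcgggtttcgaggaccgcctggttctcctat

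A promoter entry was found for 58 of the 79 members. A TOP tract core stood within 50 bases of a listed start in 28 of the 58 (48.3%), against 7.5% of 14942 tested genes with an entry. An ETS core stood between 250 bases before and 50 bases after a start, on either strand, in 69.0% of the 58 against 28.3% of all. The YY1 core AAGATGG, searched in the same window, stood in 17.2% against 7.6%, and the E-box CACGTG, the motif that Myc and its partner Max bind, in 10.3% against 10.4%. The letters of the TOP cores and of the ETS core can overlap. A match is only a stretch of letters, and listed starts can lie some bases away from those used in these cells. In Rpl4 and Rpl22 the marked core lies before the listed start. Rpl22l1 has no core by these letters, but holds the pyrimidine run ttctcttccc just after its listed start.

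Ribosomal protein mRNAs took the largest share of the RNA in DMSO at 48 hours and a smaller one in each of the other groups. The share of all counts on the 79 members was 4.73, 4.40, 4.48 and 4.43% in the DMSO libraries at 48 hours, a mean of 4.51% ± 0.15 (SD, n = 4). With sorafenib for 48 hours it was 3.64, 3.66, 3.63 and 3.58% (3.63% ± 0.035). At 7 days it was 3.51, 3.45, 3.56 and 3.50% with DMSO (3.50% ± 0.042) and 3.31, 3.39, 3.34 and 3.41% with sorafenib (3.36% ± 0.046). No group overlapped another, and the step between DMSO and sorafenib was larger at 48 hours than at 7 days. A share over the members has no test here. In bulk RNA, fewer cells of a kind and less of an RNA per cell cannot be told apart, and a share also moves with the other mRNAs.

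**Figure D2:**
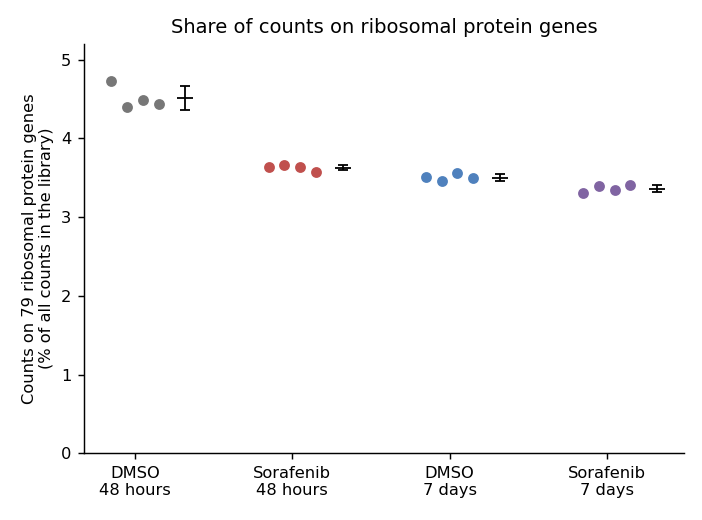
Each point is 1 library, and the y axis is the percentage of its counts that fell on the 79 ribosomal protein genes; the black mark and bar give the mean and SD of 4 libraries. DMSO at 48 hours lies at 4.40 to 4.73%, and the other 3 groups lie between 3.31 and 3.66%.

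The same order held gene by gene. The highest group mean was in DMSO at 48 hours for 73 of the 79 members, and the lowest was in sorafenib at 7 days for 59. Replicates were close: the SD was a median of 4.24% of the mean over the members in DMSO at 48 hours, 5.74% in sorafenib at 48 hours, 2.14% in DMSO at 7 days and 3.33% in sorafenib at 7 days.

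Between genes, levels were compared per kilobase of coding sequence, over all 16 libraries. On this scale Rpl41, which encodes a very short basic peptide, was highest at 97206 normalized counts per kilobase, followed by the stalk protein genes Rplp1 (77963) and Rplp0 (51991), then Rpl13a (50635) and Rps2 (46255). The lowest were Rps4l (642), Rpl22l1 (3799.7), Rpl7l1 (6419.8) and Rpl37a (6585). Of these 4, Rps4l, Rpl22l1 and Rpl7l1 are paralogs of a more abundant member. The annotated coding length of some members may be longer than that of their main transcript, which would lower this value for them.

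Sorafenib for 48 hours lowered most of the family. With p adjusted over all 20444 tested genes (edgeR, quasi-likelihood), 69 of the 79 members were lower and 1 was higher, where 27.7% of all tested genes were lower, 26.9% higher and 54.6% called in either direction. Tested genes include many with few counts, while members have at least 100 in every library. Among the 12158 genes with at least 10 counts in every library, 39.1% were lower, 36.6% higher and 75.6% called in either direction. The median log2 fold change of the members was -0.26, against -0.05 for all tested genes, and ranged from -1.21 to 0.07. In 52 members all 4 sorafenib libraries lay below all 4 DMSO libraries, as in 24.9% of all tested genes. In the small subunit 26 of 32 members were lower and none higher (median -0.21), and in the large subunit 43 of 47 were lower and 1 higher (median -0.27). Without sorafenib 48 hours replicate 2, 71 were lower and none higher, where 28.6% of all tested genes were lower.

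The decrease was also present on the chromosomes before the step. Of the 60 members before the step in that library, 52 were lower and 1 higher, with a median of -0.20. Of the 19 after the step, 17 were lower with the library (median -0.50) and 17 without it (median -0.36).

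Rpl37a, a zinc-binding protein of the large subunit (chr1:72750364-72756093 on GRCm39), fell the most. Its normalized counts were 4819, 3480, 4459 and 4568 with DMSO and 1872, 1845, 1963 and 1781 with sorafenib. The groups were far apart, although DMSO replicate 2 was lower than the other DMSO libraries. The log2 fold change was -1.21 ± 0.072 (SE; edgeR adjusted p = 1.14e-11). It stayed low at 7 days, with 3245, 3271, 3578 and 3560 in DMSO against 1652, 1629, 1571 and 1594 in sorafenib, a log2 fold change of -1.08 ± 0.072 (edgeR adjusted p = 6.22e-11). The response at 7 days minus that at 48 hours was 0.13 ± 0.10 (edgeR adjusted p = 0.344), and it was called without DMSO 48 hours replicate 2 (0.22). Rpl37a has 5 near-identical copies in the genome and 62.7% of its coding sequence is found unchanged elsewhere.

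Rpl36a, another large-subunit gene, had 5108, 5012, 4941 and 5046 normalized counts with DMSO and 2829, 1866, 2933 and 2864 with sorafenib. The value of 1866 is that of the library with the step, and the groups do not overlap with or without it. The log2 fold change was -0.93 ± 0.090 (edgeR adjusted p = 2.12e-08), and -0.80 ± 0.032 without that library. Its paralog Rpl36al, which the name rule leaves out and which lies on a chromosome before the step, had means of 1777 ± 95.6 and 1758 ± 87.2 and a log2 fold change of -0.02 ± 0.044 (edgeR adjusted p = 0.787). The ratio of Rpl36al to Rpl36a counts was 0.374, 0.342, 0.362 and 0.337 with DMSO and 0.605, 0.597 and 0.589 in sorafenib replicates 1, 3 and 4.

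Rps28, which sits near the mRNA exit of the small subunit, fell from 3439 ± 269 to 1831 ± 346 normalized counts. Its log2 fold change was -0.90 ± 0.099 (edgeR adjusted p = 1.38e-07), and -0.78 ± 0.046 without the library with the step. Rpl10a, the protein of the mobile L1 stalk, fell from 9983 ± 628 to 6209 ± 1000.0, by 0.68 ± 0.079 on the log2 scale (edgeR adjusted p = 2.81e-07), and by 0.58 ± 0.033 without that library. Both genes kept non-overlapping groups at 48 hours. The decrease of Rpl10 was also smaller without that library: its log2 fold change was -0.26 ± 0.092 with it (edgeR adjusted p = 0.0214) and -0.13 ± 0.028 without it (edgeR adjusted p = 9.91e-05).

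Rps4l, a paralog of Rps4x, fell at 48 hours and did not pass the test at 7 days. It had 708.7, 660.2, 685.0 and 684.4 normalized counts with DMSO and 440.6, 418.9, 394.0 and 397.5 with sorafenib. The groups lie well apart, with a log2 fold change of -0.73 ± 0.059 (edgeR adjusted p = 1.32e-09). At 7 days both groups overlapped, with 499.5, 428.3, 426.4 and 450.8 in DMSO and 499.4, 472.7, 435.6 and 473.2 in sorafenib. The log2 fold change there was 0.06 ± 0.058 (edgeR adjusted p = 0.400), and the difference between the responses, 0.79 ± 0.083, was the largest positive one in the family (edgeR adjusted p = 2.07e-07). DMSO itself fell between the times, by 0.60 ± 0.057 on the log2 scale (edgeR adjusted p = 2.19e-08). None of its coding sequence has an identical stretch of 75 bases elsewhere in the genome, and it is 80.0% identical to that of Rps4x. Rps4x fell by 0.50 ± 0.085 at 48 hours (edgeR adjusted p = 3.9e-05) and by 0.37 ± 0.027 without the library with the step.

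At the other end, 9 members were not called at 48 hours and 1 was higher. Rpl4, part of the peptide exit tunnel and the member with the most counts per gene, had 54077, 54015, 53275 and 52349 normalized counts with DMSO and 54309, 57802, 55572 and 55993 with sorafenib. The groups are apart by a narrow margin. The log2 fold change of 0.07 ± 0.024 (edgeR adjusted p = 0.0235) did not hold without the library with the step (0.05 ± 0.025, edgeR adjusted p = 0.0855), without any other sorafenib library of 48 hours or without DMSO 48 hours replicate 1, 3 or 4 (0.03 to 0.05), and turned to -0.0043 with total counts as the scale. Rps27l, which p53 is known to activate, was at 2402 ± 75.9 and 2526 ± 148, a log2 fold change of 0.07 ± 0.040 (edgeR adjusted p = 0.132). Rplp1 was at 27831 ± 1020.0 and 27922 ± 1190.0, and Rps12 at 16663 ± 1300.0 and 16623 ± 1340.0. In each of these 3 genes the groups overlapped.

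At 7 days the decrease was smaller and the family less uniform. Of the 79 members 46 were lower and 6 higher, where 27.9% of all tested genes were lower, 28.9% higher and 56.8% called in either direction. Among genes with at least 10 counts in every library, 36.7% were lower and 38.5% higher. In either direction 75.2% of these genes were called, against 65.8% of the members. The median log2 fold change was -0.15, against 0.02 for all tested genes, and ranged from -1.19 to 0.29. In 53 members every sorafenib library lay below every DMSO library and in 6 above, against 28.4% and 28.5% of all tested genes. Small-subunit members were lower in 19 and higher in 1 of 32, and large-subunit members lower in 27 and higher in 5 of 47. Of the 69 members lower at 48 hours, 44 were lower at 7 days too, 22 were not called and 3 (Rpl12, Rplp0 and Rpl13a) were higher. Without the library with the step, which adds to the shared estimate of spread, 56 members were lower and 9 higher, but calls rose over all tested genes too, to 30.7% lower and 31.2% higher. Without DMSO 7 days replicate 4, 42 were lower and 7 higher, where 27% of all tested genes were lower and 27.6% higher.

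Rpl22l1, a paralog of Rpl22 that can take its place in the large subunit (chr3:28859585-28861573 on GRCm39), fell the most at 7 days. DMSO libraries had 1521, 1501, 1476 and 1593 normalized counts and sorafenib libraries 668.2, 697.6, 676.1 and 634.5. All 4 sorafenib libraries were below the lowest DMSO library by more than the range of either group. The log2 fold change was -1.19 ± 0.047 (edgeR adjusted p = 1.99e-14). At 48 hours it was only -0.20 ± 0.045 (edgeR adjusted p = 0.000782), with 1778 ± 63.1 in DMSO and 1547 ± 94.1 in sorafenib. The responses differed by -0.99 ± 0.065 (edgeR adjusted p = 2.9e-10), the largest negative difference in the family. Copies match 96.1% of its coding sequence, so part of its count could be exchanged with theirs.

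Its partner Rpl22, which has been described as a repressor of Rpl22l1, had the reverse order of responses. Its normalized counts were 11457, 11156, 10976 and 10644 with DMSO for 48 hours and 8347, 8826, 9081 and 8626 with sorafenib, a log2 fold change of -0.34 ± 0.030 (edgeR adjusted p = 5.96e-09). At 7 days they were 7903, 8018, 7874 and 8193 with DMSO and 7900.0, 7878, 7844 and 7970 with sorafenib, and the groups overlapped (-0.02 ± 0.030, edgeR adjusted p = 0.644). The ratio of Rpl22l1 to Rpl22 counts was 0.161 ± 0.0075 with DMSO and 0.177 ± 0.0073 with sorafenib at 48 hours, and 0.190 ± 0.0037 and 0.0847 ± 0.0038 at 7 days. The coding sequences are 70.8% identical, so reads of one are unlikely to be counted on the other.

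The pair Rps27 and Rps27l, proteins of the small subunit, also moved apart. Rps27 was 8905 to 9291 with DMSO and 6477 to 7074 with sorafenib at 48 hours and 6371 to 7038 and 4846 to 4958 at 7 days, with log2 fold changes of -0.40 ± 0.035 (edgeR adjusted p = 5.33e-09) and -0.42 ± 0.035 (edgeR adjusted p = 2.17e-09). At 7 days Rps27l was 2739 ± 18.3 and 2484 ± 82.8, a fall of 0.14 ± 0.040 on the log2 scale (edgeR adjusted p = 0.00503). The ratio of Rps27l to Rps27 counts was 0.265 ± 0.0082 and 0.367 ± 0.0086 with DMSO and sorafenib at 48 hours, and 0.417 ± 0.016 and 0.506 ± 0.020 at 7 days. It was lowest in DMSO at 48 hours and highest in sorafenib at 7 days, and the 4 groups do not overlap.

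Of the other paralogs, Rpl7l1, which is known from ribosome assembly, fell at both times: by 0.60 ± 0.077 at 48 hours (0.49 ± 0.027 without the library with the step) and by 0.49 ± 0.076 at 7 days on the log2 scale, with edgeR adjusted p = 1.18e-06 and 1.34e-05. Rpl7 fell by 0.19 ± 0.028 and 0.14 ± 0.028, with edgeR adjusted p = 8.2e-06 and 0.000244. Rpl3, near the catalytic centre, fell by 0.57 ± 0.078 (0.45 ± 0.028 without that library) and 0.45 ± 0.078, with edgeR adjusted p = 2.96e-06 and 4.83e-05. Rpl39, at the exit tunnel, fell by 0.62 ± 0.10 (0.51 ± 0.055 without it) and 0.50 ± 0.10, with edgeR adjusted p = 2.21e-05 and 0.000282.

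**Figure D3:**
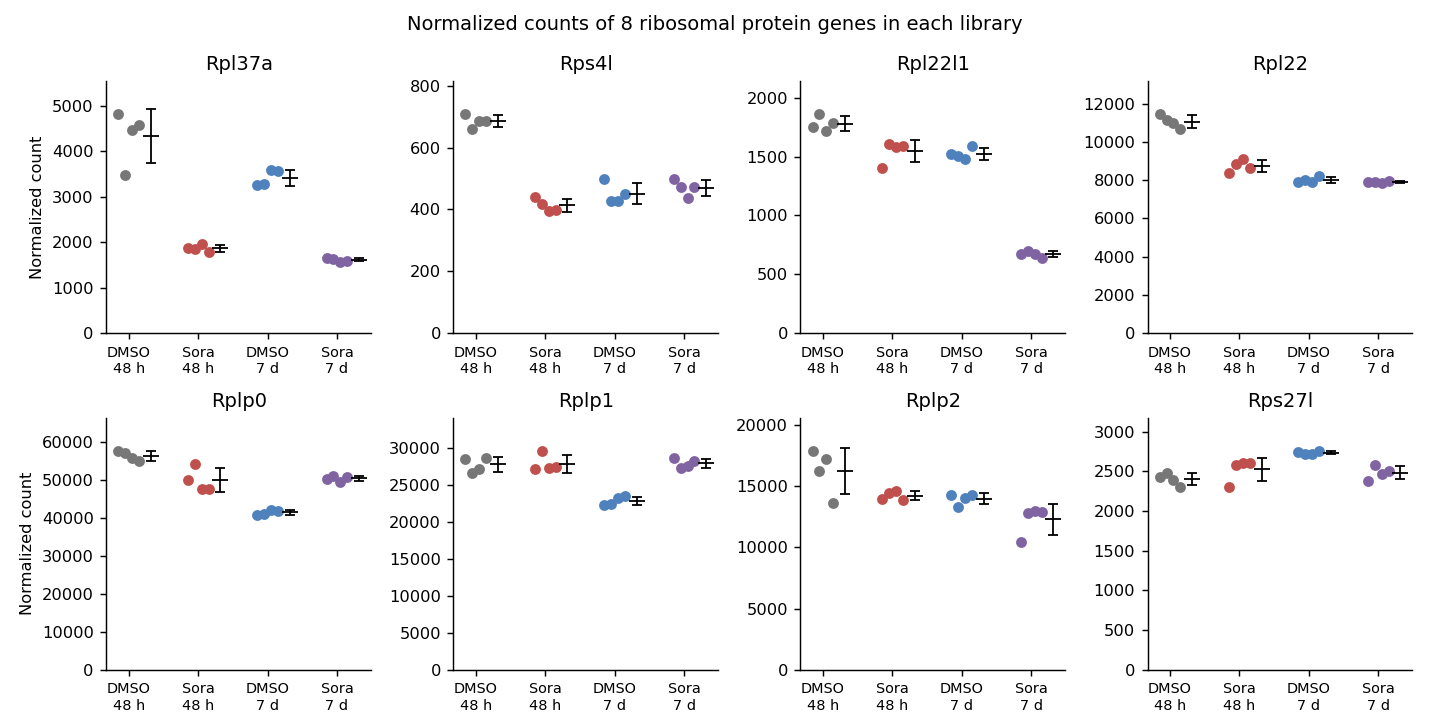
Each panel gives 1 gene, each point the normalized count in 1 library and the black mark and bar the mean and SD of 4 libraries. Rpl37a is low in both sorafenib groups, Rps4l is high only in DMSO at 48 hours, Rpl22l1 is lowest in sorafenib at 7 days, and Rplp0 and Rplp1 are lowest in DMSO at 7 days.

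The stalk of the large subunit, which recruits elongation factors, consists of Rplp0 with pairs of Rplp1 and Rplp2, and its genes did not respond together. Rplp0 had 57635, 56885, 55589 and 54890 normalized counts with DMSO and 49999, 54221, 47483 and 47576 with sorafenib at 48 hours, lower in every sorafenib library (-0.18 ± 0.034, edgeR adjusted p = 0.000198). At 7 days it had 40716, 41081, 41982 and 41845 with DMSO and 50112, 50979, 49411 and 50692 with sorafenib, higher in every sorafenib library (0.28 ± 0.034, edgeR adjusted p = 6.14e-07). Its responses differed by 0.46 ± 0.049 (edgeR adjusted p = 2.72e-07).

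Rplp1 rose at 7 days, from 22363, 22479, 23225 and 23535 to 28744, 27396, 27613 and 28250 (0.29 ± 0.034, edgeR adjusted p = 2.77e-07), the largest increase in the family. Rplp2 went the other way. It had 14248, 13339, 14048 and 14271 normalized counts with DMSO and 10440, 12823, 12993 and 12892 with sorafenib at 7 days, all sorafenib libraries being lower (-0.19 ± 0.070, edgeR adjusted p = 0.0295). This call rested on few libraries: without sorafenib 7 days replicate 1 the log2 fold change was -0.12 (edgeR adjusted p = 0.130), and without DMSO 7 days replicate 1, 3 or 4 it was -0.18 with edgeR adjusted p = 0.0643, 0.056 and 0.0647. It did not hold with total counts as the scale either (edgeR adjusted p = 0.0504). At 48 hours Rplp2 fell by 0.19 ± 0.070 (edgeR adjusted p = 0.0247), with groups that overlapped and a call that did not hold without DMSO 48 hours replicate 1 (-0.17).

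The other members higher at 7 days were Rps2, Rpl12, Rpl13a and Rpl19. Rps2, close to the mRNA entry channel, had 37089, 37530, 38258 and 36876 normalized counts with DMSO and 42981, 45417, 45348 and 46846 with sorafenib, with no overlap (0.27 ± 0.089, edgeR adjusted p = 0.0139, and 0.27 ± 0.032 without the library with the step). Rpl12, at the base of the stalk, was 16228 ± 309 and 17593 ± 485 (0.12 ± 0.041, edgeR adjusted p = 0.0192), a call that did not hold without sorafenib 7 days replicate 2 or 4 or DMSO 7 days replicate 2 (0.10 to 0.11). Rpl13a and Rpl19, named after their values were seen, rose by 0.10 ± 0.041 (edgeR adjusted p = 0.0366) and 0.10 ± 0.042 (edgeR adjusted p = 0.0424). The groups of Rpl19 overlapped, with 10343 to 11597 normalized counts in DMSO and 11311 to 11688 in sorafenib. The number of members higher at 7 days was 3 without DMSO 7 days replicate 2, sorafenib 7 days replicate 2 or sorafenib 7 days replicate 4, where 27.6 to 27.7% of all tested genes were higher. For each of these 4 genes, DMSO at 7 days was below DMSO at 48 hours.

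Among the lower members at 7 days were Rps25, which internal ribosome entry requires, and Rps21, a small-subunit protein. Rps25 had 8838, 8413, 8823 and 9054 normalized counts with DMSO and 5779, 6016, 5982 and 5794 with sorafenib, and Rps21 had 7046, 6741, 7108 and 7033 against 3907, 4806, 5033 and 4996. In both genes the sorafenib libraries lay well below. Rps25 fell by 0.58 ± 0.036 and Rps21 by 0.57 ± 0.066 on the log2 scale, with edgeR adjusted p = 2.07e-11 and 2.53e-07. Rps28 fell by 0.57 ± 0.099 (edgeR adjusted p = 4.94e-05).

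Rpl5 and Rpl11, which form a particle with 5S ribosomal RNA before they join the large subunit, differed at 7 days. Rpl11 had 8365, 8420, 8724 and 9094 normalized counts with DMSO and 5911, 6245, 6074 and 6143 with sorafenib, a clear separation (-0.51 ± 0.048, edgeR adjusted p = 1.62e-08). Rpl5 had 6848, 6906, 7015 and 7583 against 7505, 6630, 6435 and 6421, and the groups overlapped (-0.07 ± 0.057, edgeR adjusted p = 0.306). At 48 hours Rpl11 fell by 0.57 ± 0.048 (edgeR adjusted p = 3.2e-09) and Rpl5 by 0.35 ± 0.057 (edgeR adjusted p = 2.44e-05). Between the times the response of Rpl5 differed by 0.28 ± 0.081 (edgeR adjusted p = 0.00939) and that of Rpl11 by 0.06 ± 0.068 (edgeR adjusted p = 0.537).

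Rps6, the substrate of the S6 kinases, fell by 0.13 ± 0.039 at 48 hours (edgeR adjusted p = 0.00985) and 0.10 ± 0.039 at 7 days (edgeR adjusted p = 0.0348) on the log2 scale, and the call at 7 days did not hold without sorafenib 7 days replicate 1 (-0.07) or DMSO 7 days replicate 1, 3 or 4 (-0.10 to -0.09). Rpsa, the small-subunit protein also known as a laminin receptor, fell by 0.18 ± 0.032 at 48 hours (edgeR adjusted p = 5.98e-05) and had a log2 fold change of 0.07 ± 0.032 at 7 days (edgeR adjusted p = 0.0697). The ubiquitin fusion gene Rps27a fell by 0.17 ± 0.057 at 48 hours (edgeR adjusted p = 0.0185; not called without DMSO 48 hours replicate 2, at -0.15) and was at 0.03 ± 0.057 at 7 days (edgeR adjusted p = 0.704). The ubiquitin-like fusion gene Fau, which the name rule leaves out, was at -0.38 ± 0.087 at 48 hours (edgeR adjusted p = 0.000926), at -0.25 there without the library with the step, and at -0.02 ± 0.086 at 7 days (edgeR adjusted p = 0.884). Fau had 4437 normalized counts in the library with the step and 6564 to 7046 in the other sorafenib libraries at 48 hours.

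The test of the difference between the responses called 27 of the 79 members (34.2%), where it called 36.8% of all tested genes. Among genes with at least 10 counts in every library it called 56.2% (27.1% higher, 29.1% lower), more than among the members. The response was higher at 7 days, mostly less negative, in 23 and lower in 4 (Rpl22l1, Rps25, Rps27l and Rpl27), where 15.5% and 21.3% of all tested genes were called in these directions. The call of Rpl27 (-0.14 ± 0.051, edgeR adjusted p = 0.0333) did not hold in 12 of the 16 fits that leave out 1 library, that of Rps4x in 11, and that of Rpl36a in 4. The median difference was 0.12, against 0.02 for all tested genes. This count depended on 1 library and on the scale: it was 45 (39 higher, 6 lower) without sorafenib 48 hours replicate 2, where 18.1% of all tested genes were higher and 24.9% lower, and 42 (41 higher, 1 lower) with total counts, where 20.2% were higher and 16.1% lower. The log2 fold changes at 48 hours and at 7 days had Pearson's r of 0.66 and Spearman's rho of 0.70 across the 79 members, as a description. The 2 comparisons use different libraries, but the members share them, and many share sequence with copies.

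**Figure D4:**
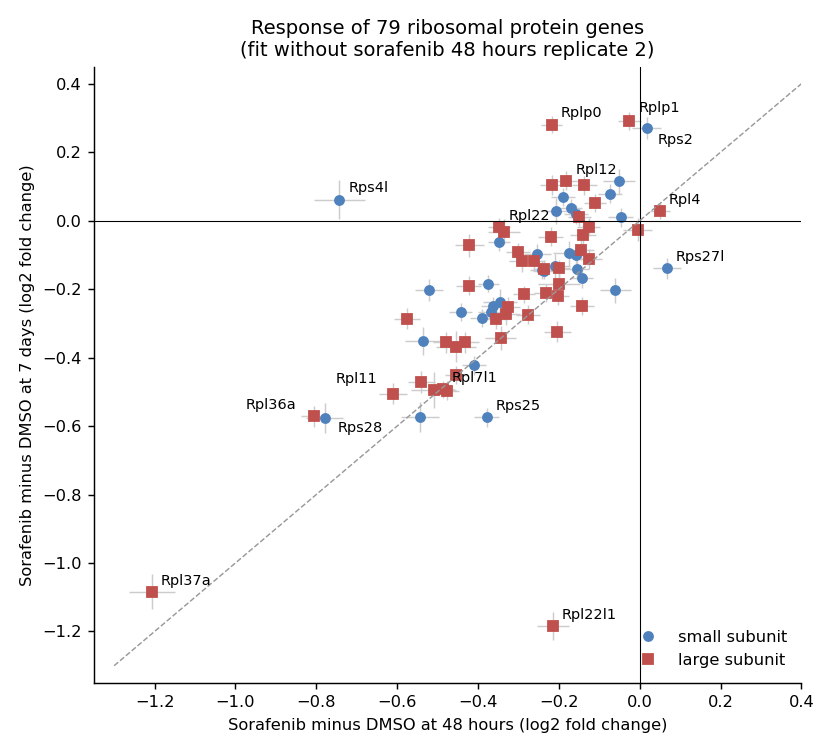
Each point is 1 member, with the log2 fold change of sorafenib against DMSO at 48 hours on the x axis and at 7 days on the y axis, fitted without sorafenib 48 hours replicate 2; bars are SE and the dashed line marks equal responses. Most points lie below 0 on both axes, Rpl22l1 (-0.22 and -1.18) and Rps4l (-0.74 and 0.06) lie far from the line, and Rplp0, Rplp1 and Rps2 are above 0 at 7 days.

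The shape of the family was also read against its own total, by scaling each library to its summed member counts. On this scale a value says only how a gene moved within the family. At 48 hours 19 members were higher and 28 lower, where 38.7% of all tested genes were higher and 16.4% lower, and at 7 days 14 were higher and 33 lower, against 32.8% and 23.4%. Lower members at 48 hours include some after the step, as Rpl36a (-0.69 ± 0.084) and Rps28 (-0.66 ± 0.096). Leaving out each library in turn gave 42 to 54 called members at 48 hours. The part of the library with the step in these directions was not described apart. Rpl37a stayed the lowest at 48 hours, at -0.97 ± 0.066 (edgeR adjusted p = 1.54e-11), and Rpl22l1 was the lowest at 7 days, at -1.10 ± 0.053 (edgeR adjusted p = 3.34e-14). At 48 hours members among the highest were Rps27l (0.32 ± 0.043), Rpl4 (0.31 ± 0.032), Rplp1 (0.25 ± 0.040) and Rps12 (0.24 ± 0.052), all called. At 7 days the highest were Rplp1 (0.37 ± 0.040), Rplp0 (0.36 ± 0.040), Rps2 (0.35 ± 0.082), Rpl12 (0.20 ± 0.041) and Rps12 (0.20 ± 0.052), also all called.

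Without any drug, the family was lower at 7 days than at 48 hours. From 48 hours to 7 days in DMSO, 70 members were lower and 1 was higher (Rps27l), where 25.5% of all tested genes were lower, 23.9% higher and 49.4% called in either direction, with a median log2 fold change of -0.30 against -0.01. Among genes with at least 10 counts in every library, 36.3% were lower, 34.7% higher and 71% called in either direction. Rps4l (-0.60) and Rpl13a (-0.56) were the most lowered, the latter named after its value was seen. In sorafenib 50 members were lower and 3 higher (Rps4l, Rps2 and Rpl7l1) at 7 days against 48 hours, where 22.3% of all tested genes were lower, 17.5% higher and 39.7% called in either direction, with a median of -0.18. Among genes with at least 10 counts in every library, 29.9% were lower, 29.1% higher and 59% called in either direction. Rps2 and Rpl7l1 lie after the step, and their increases of 0.23 and 0.22 on the log2 scale became 0.10 and 0.10 when it was left out, while 65 members were lower and 3 higher, where 25% of all tested genes were lower. Without sorafenib 7 days replicate 1 no member was higher, against 15.9% of all tested genes. The comparison in DMSO and the comparison of sorafenib with DMSO at 48 hours share the 4 DMSO libraries of 48 hours, and time cannot be told apart from other differences between the 48-hour and 7-day cultures.

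Of 5 ribosomal protein genes that the name rule leaves out, 3 were lower and none higher at 48 hours, and 2 were lower and none higher at 7 days. These are 60.0% and 40.0% lower, where 27.7% and 27.9% of all tested genes were lower. Mitochondrial ribosomal protein genes, which build the separate ribosome of the mitochondrion, were called in both directions: of 78, 30 were higher and 24 lower at 48 hours (median -0.02), 17 higher and 39 lower at 7 days (median -0.15), and 41 higher and 9 lower with time in DMSO (median 0.17). At 48 hours these are 38.5% higher and 30.8% lower, where all tested genes had 26.9% and 27.7%. At 7 days the share higher was 21.8%, against 28.9%, and the 39 of 78 lower compare with 27.9% of all tested genes. The median of this list at 7 days (-0.15) was near that of the cytosolic members (-0.15). With time in DMSO 52.6% were higher and 11.5% lower, against 23.9% and 25.5% of all tested genes.

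Genes named from the lists that follow were chosen after their values were seen. Ribosome biogenesis genes, which make and process ribosomal RNA and assemble the subunits, had other counts than the ribosomal proteins. Of 22, 10 were higher and 5 lower with sorafenib at 48 hours (median 0.02), 1 was higher and 18 lower at 7 days (median -0.24), and 20 were higher and none lower with time in DMSO (median 0.34). At 48 hours these are 45.5% higher and 22.7% lower, where all tested genes had 26.9% and 27.7%. At 7 days 81.8% were lower, against 27.9%, and with time in DMSO 90.9% were higher, against 23.9%. Ncl, the nucleolar protein nucleolin, was at 0.26 ± 0.027 at 48 hours and -0.23 ± 0.027 at 7 days, with edgeR adjusted p = 4.92e-08 and 2.58e-07. Polr1b, a subunit of RNA polymerase I, fell at both times, by 0.34 ± 0.034 and 0.75 ± 0.034 on the log2 scale, with edgeR adjusted p = 3.22e-08 and 1.61e-13. Rrp12, a pre-ribosome export factor, rose by 0.74 ± 0.077 at 48 hours (edgeR adjusted p = 6.9e-08) and was at -0.0041 ± 0.073 at 7 days (edgeR adjusted p = 0.978). Its normalized counts at 48 hours were 1259 ± 61.3 with DMSO and 2099 ± 329 with sorafenib. Bop1 (SD of 553 against 109 in DMSO) and Nolc1 (1600 against 235) of this list were also more spread with sorafenib at 48 hours. The part of the library with the step in the counts of this list at 48 hours was not tested.

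Of 16 other mRNAs with a TOP tract, 1 was higher and 5 lower at 48 hours (median -0.10), and 1 higher and 8 lower at 7 days (median -0.09). The share lower was 31.2% at 48 hours, near the 27.7% of all tested genes, and at 7 days 8 of 16 compare with 27.9%. Some of the 16 were widely spread in sorafenib at 48 hours, as Pabpc1 (SD of 7660, against 1090 in DMSO) and Eif3h (1580 against 127). Others, as Eef2 (2680 against 2380), were not. The part of the library with the step in the count at 48 hours was not tested. The elongation factor gene Eef2 fell by 0.07 ± 0.023 and 0.08 ± 0.023 (edgeR adjusted p = 0.0153 and 0.00484), while Vim, the intermediate filament gene, rose by 1.12 ± 0.029 and 0.96 ± 0.028 (edgeR adjusted p = 2.01e-17 and 1.64e-16). With time in DMSO, 4 of the 16 were higher and 7 lower (25.0% and 43.8%, against 23.9% and 25.5% of all tested genes).

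Chaperones that carry single ribosomal proteins were higher in 5 and lower in 3 of 8 at 48 hours, and higher in 2 and lower in 5 at 7 days. Of 7 regulators of TOP translation, 3 were higher and 3 lower at 48 hours, and 2 higher and 3 lower at 7 days. Of all tested genes, 26.9% were higher and 27.7% lower at 48 hours, and 28.9% and 27.9% at 7 days. The chaperones were at 62.5% and 37.5%, then 25.0% and 62.5%. The regulators were at 42.9% and 42.9%, then 28.6% and 42.9%. Eif4ebp1, the translation repressor that mTOR inactivates, rose by 1.04 ± 0.049 and 0.99 ± 0.048 (edgeR adjusted p = 2.75e-13 and 5.4e-13), and Larp1 was at 0.47 ± 0.034 and 0.07 ± 0.034 (edgeR adjusted p = 3e-10 and 0.0854). Eif4ebp2 of the same list fell, by 0.51 ± 0.0465 and 0.65 ± 0.0461 (edgeR adjusted p = 9.28e-09 and 1.86e-10). Rps6kb1 fell by 0.11 and 0.46 and Mtor by 0.18 and 0.31.

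**Figure D5:**
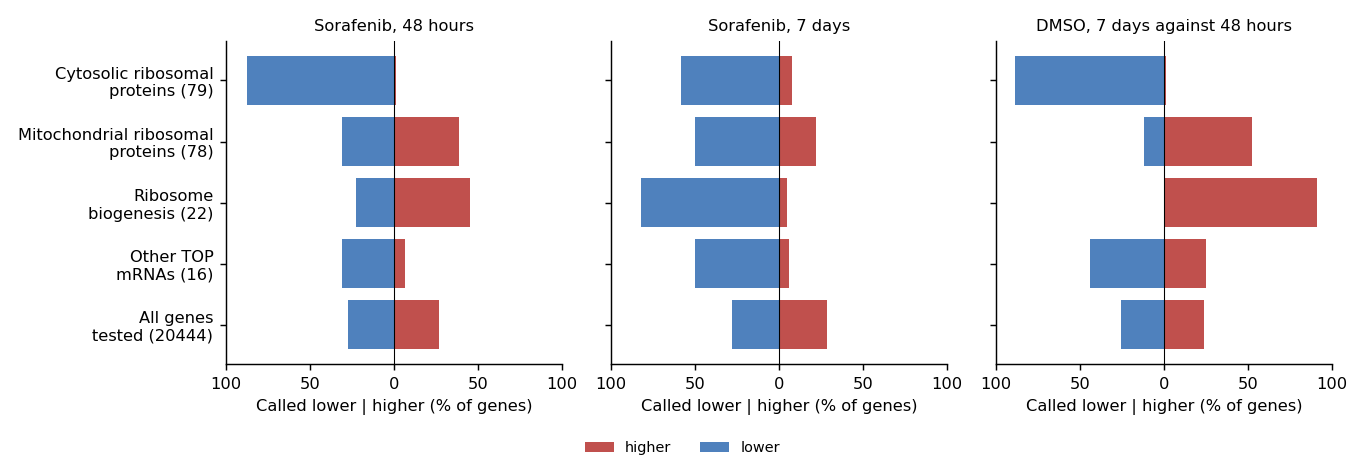
Bars give, for each list and for all 20444 tested genes, the percentage of genes called lower (blue, to the left) and higher (red, to the right) by edgeR, for sorafenib against DMSO at 48 hours and at 7 days and for 7 days against 48 hours in DMSO. Cytosolic ribosomal proteins are mostly lower in all 3, while ribosome biogenesis genes are lower in 18 of 22 at 7 days and higher in 20 of 22 with time in DMSO.

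Members with and without a TOP core near a listed start overlapped in their responses. The 28 with it had a median log2 fold change of -0.26 at 48 hours (from -0.93 to 0.07) and -0.09 at 7 days, and the 30 without it -0.33 (from -1.21 to 0.07) and -0.26. The 40 with an ETS core had medians of -0.32 and -0.21, and the 18 without it -0.24 and -0.13. These are descriptions with no test.

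Ribosomal protein genes have many processed copies in the genome, and reads that match several places can be dropped or split in counting. Of the 79 members 77 had at least 1 near-identical copy (median 6, highest 64), and 29 had their whole coding sequence elsewhere. The 12 members with under 50% of the coding sequence found elsewhere had a median log2 fold change of -0.36 at 48 hours and -0.18 at 7 days, and the other 67 had -0.25 and -0.15. At 48 hours 10 of the 12 and 59 of the 67 were lower. Across the members the share found elsewhere had Spearman's rho of -0.04 with the log2 fold change at 48 hours and -0.07 at 7 days. Rows named as copies held 0.0028 to 0.0048% of the counts. There are only 23 such rows, so most of the near-identical copies are not among them.

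Members with more counts had higher, that is mostly less negative, log2 fold changes: across the 79 members the log2 mean normalized count had Pearson's r of 0.41 and Spearman's rho of 0.31 with the response at 48 hours, and 0.53 and 0.50 at 7 days. Coding length had rho of 0.15 and 0.36. These points share libraries and are no replicates.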

How the data were processed

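The authors prepared RNA libraries with Illumina Stranded mRNA Prep, sequenced them on a NovaSeq and aligned reads to GRCm39 with STAR 2.7.1a. The submitters' processing notes also name featureCounts 2.0.6 and DESeq2 1.40.2. The values the authors deposited are raw counts per gene. Strand setting, multi-mapping reads and annotation are not given in the sources used here.

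Genes with under 10 counts in total were removed (20396), which left 20444. Counts were tested with edgeR 4.0.16 (R 4.3.3) by quasi-likelihood after TMM, in 1 model of 16 libraries with 4 group coefficients. Calls were at a Benjamini-Hochberg adjusted p under 0.05. Normalized counts are counts scaled by TMM library sizes. Limma 3.58.1 (voom) and DESeq2 1.42.0 were alternatives. Steps were tested on simulated data.

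Coding sequences (GENCODE mouse release 39) were matched to GRCm39 with blastn 2.17.0 (at least 95% identity over 75 bases); identical stretches have at least 75 bases. The step in 1 library is the position, over 10406 genes sorted by chromosome and start, at which mean log2 ratios to the other replicates before and after it differ most. Replicates differed by more than counting error (chi-square of 1.49 to 55 a gene over the pairs), so each library counted once.

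Members, gene lists and tests were chosen with earlier results of these data known. The named genes are the 5 highest and 5 lowest members by log2 fold change in each comparison of sorafenib, in their difference and in the fit to the family total, the paralogs, the stalk, ubiquitin fusion and 5S particle genes, Rps6 and Rpsa, and the 5 highest and 5 lowest per kilobase; some of these are not reported here. Alternatives changed the normalization, filter, tool, threshold, libraries and block.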

Additional observations from a re-analysis of the deposited data

Results flagged for a closer look

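A sample far from the other 3 of its group was found in 19 group values of the named members, by Dixon's ratio of the gap to the range. Chance gives such a value in about 1 in 20 groups. In sorafenib 48 hours replicate 2 they were Rpl36a (1866 normalized counts), Rps28 (1313), Rpl10a (4732), Rps18 (7772), Rpl7l1 (2667), Rpl10 (7659) and Rps4x (10957), all low and all after the step on chromosome 14, and Rplp1 (29708) and Rpl27 (3245), both high and before it. In sorafenib 48 hours replicate 1 they were Rps27l (2305), Rpl22l1 (1407) and Rps25 (7886), all low. In sorafenib 7 days replicate 1 they were Rps12 (14037), Rplp2 (10440) and Rps6 (5971), all low, and Rpl36a stood apart in replicate 3 (2313). In DMSO, Rpl4 was low in 7 days replicate 1 (45718), Rpl27 high in 48 hours replicate 1 (3410) and Rpl39 low in 48 hours replicate 4 (2689).

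The response to sorafenib differed between 7 days and 48 hours, by the edgeR test of the difference, in 16 of 32 named members. These 32 leave out members named only for their level per kilobase. Some of the 32 were chosen for the size of this same difference, so the count of 16 is no measure of how common it was. Over the whole family the test called 27 of 79 members (34.2%), where it called 36.8% of all tested genes. On the log2 scale the response was higher at 7 days for Rps4l (0.79), Rplp0 (0.46), Rps18 (0.41), Rpl10a (0.40), Rps2 (0.38), Rpl36a (0.36), Rpl22 (0.32), Rps4x (0.32), Rplp1 (0.29), Rpl5 (0.28), Rpl12 (0.26) and Rpsa (0.25). It was lower for Rpl22l1 (-0.99), Rps27l (-0.21), Rps25 (-0.20) and Rpl27 (-0.14). Of these, Rps18, Rpl10a, Rps2, Rpl36a and Rps4x lie after the step, and without sorafenib 48 hours replicate 2 their differences were 0.28, 0.29, 0.25, 0.23 and 0.19.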

How the results depend on the processing

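All alternatives run for sorafenib at each time, for time in each treatment and for the difference of the responses kept the sign of the members' median. A further minimum of 0.5 for the size of the log2 fold change left 14 members called at 48 hours, 7 at 7 days, 2 for the difference of the responses, 5 with time in DMSO and 2 with time in sorafenib, of 79. Of all tested genes it left 32.2, 34, 19.2, 23.6 and 16.5% called in the same comparisons. The difference of the responses was called for 42 members with total counts in place of TMM and for 45 without sorafenib 48 hours replicate 2, where 36.3% and 43% of all tested genes were called. Leaving out each library in turn gave 66 to 71 members at 48 hours, 46 to 65 at 7 days, 22 to 45 for the difference, 68 to 78 with time in DMSO, 46 to 68 with time in sorafenib, and 42 to 54 and 41 to 56 against the family total at 48 hours and 7 days. Of all tested genes, these fits called 52.4 to 57% at 48 hours, 54.3 to 61.9% at 7 days and 34.9 to 43% for the difference. With time they called 46.4 to 55.2% in DMSO and 36.4 to 44.5% in sorafenib. On chromosomes 1 to 13 alone the share of counts was 4.69, 3.78, 3.61 and 3.51% in DMSO and sorafenib at 48 hours and DMSO and sorafenib at 7 days. The log2 fold change of Rpl4 at 48 hours was -0.0043 with total counts. Counts over the 60 members before the step, added after seeing the data, were 52 lower and 1 higher at 48 hours.

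Same-numbered libraries deviated together weakly (correlations from -0.05 to 0.12). The labels do not say whether they belong together, and these values do not settle it. With a replicate block, 70 members were called at 48 hours, 55 at 7 days, 28 for the difference, and, over time, 71 in DMSO and 51 in sorafenib. Of all tested genes, 52.1, 53.9, 34.2, 48.3 and 38.2% were called with it in the same comparisons. Whether depth limited calls was not tested; the lowest count of a member was 277. The 6 rows under 100 counts were not described further.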
